A study of Sus scrofa with 30 samples.

Results

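Plasma miRNAs of irradiated Göttingen minipigs (GMPs, Sus scrofa) were compared between the second week after total body irradiation (TBI) and the first. The libraries of 10d and 14d post-TBI were set against those of 3d and 7d post-TBI, for every one of the 411 ssc-miRNAs in the table, where a library was admitted if its counts summed to at least 1000. This rule gave 8 of the 30 libraries of the series, 4 on each side, and all 8 came from the same 2 animals, minipig 1 and minipig 2. The animals were males of about 4 months and all of them had received 2.2 Gy of TBI from a cobalt source, a lethal dose for most GMPs. They formed the control arm of a countermeasure study, so each was given dextrose under the skin 1 day and 8 days post-TBI, the second dose falling between the sides compared, and oral antibiotics were given once neutrophils were low. Plasma of minipig 3 gave 0 to 17 counts at each time point from 3d to 20d, and the 6 libraries concerned were left out. The other 16 libraries of the 24 that remained (pre-TBI, 0d, 1d, 17d and 20d) entered the fit to estimate the spread between libraries. Each side therefore held 2 time points of 2 animals, and a p value measures the spread between such libraries, not between 4 animals.

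A miRNA is a short RNA that guides Argonaute proteins to messenger RNAs, chiefly through its seed, the bases 2 to 8 from the 5′ end. The miRNAs of plasma are carried in vesicles, lipoproteins and protein complexes, and many of them are released by platelets, red cells, leukocytes and endothelium. TBI kills the dividing progenitors of the bone marrow, and circulating blood cells, among them lymphocytes, neutrophils and platelets, are depleted after it. In plasma, fewer cells that release a miRNA and less of it released per cell cannot be told apart.

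The following seeds of the lower ssc-miRNAs were read from the supplementary material of the study by family name. They are shown because the lower ssc-miRNAs did not share 1 seed, let-7 being the family with most members. The capitals mark the seed, and only the seed is printed. Of the 28 ssc-miRNAs with an unadjusted p under 0.05 in the lower direction, 17 could be given a seed in this way, and they held 12 different seeds.
ssc-miR-26a: UCAAGUA
ssc-miR-22-3p: AGCUGCC
ssc-miR-28-3p: ACUAGAU
ssc-miR-27a and ssc-miR-27b-3p: UCACAGU
ssc-miR-24-3p: GGCUCAG
ssc-let-7a, ssc-let-7c, ssc-let-7f and ssc-let-7g: GAGGUAG
ssc-miR-16: AGCAGCA
ssc-miR-17-5p and ssc-miR-106a: AAAGUGC
ssc-miR-142-5p: AUAAAGU
ssc-miR-126-5p: AUUAUUA
ssc-miR-148a-3p: CAGUGCA
ssc-miR-451: AACCGUU

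Depth differed between the sides. The 4 libraries of 3d and 7d held 254333 and 204179 counts in minipig 1 and 260504 and 172339 in minipig 2, while those of 10d and 14d held 59291 and 82536 in minipig 1 and 35762 and 103083 in minipig 2. Every library of the second week was thus shallower than every library of the first. The log2 total was 15.99 ± 0.66 (SD, n = 4) against 17.75 ± 0.28 (SD, n = 4), a difference of -1.75 (two-sided exact permutation test within minipigs, p = 0.0556, the smallest that its 36 arrangements allow). After random thinning to 35762 counts a mean of 406.25 ssc-miRNAs was detected on either side. The depth of the library and the week after TBI cannot be told apart in these 8 libraries. Each count is a read after PCR and not a molecule, so counting intervals would leave other errors out.

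At 10d and 14d, 4 ssc-miRNAs were lower than at 3d and 7d and none was higher once p values of edgeR's quasi-likelihood test had been adjusted over the 411 ssc-miRNAs (Benjamini-Hochberg, threshold 0.05). The 4 were ssc-miR-342, ssc-miR-191, ssc-miR-26a and ssc-miR-22-3p, and their levels were 2.96-fold to 5.82-fold lower. They were 0.973% of the ssc-miRNAs tested. At an unadjusted p under 0.05, 28 ssc-miRNAs were lower (6.81%) and 26 higher (6.33%). All 28 lower ones moved that way in both minipigs and 24 of the 26 higher ones did, a share that is raised by choosing them on the same libraries. Over all ssc-miRNAs the median log2 fold change was 0.05, with 190 below 0 and 221 above. In 20 ssc-miRNAs (4.87%) all 4 libraries of the second week lay below all 4 of the first, and in 10 (2.43%) they lay above.

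ssc-miR-342, an intronic miRNA abundant in lymphocytes, had a log2 CPM of 11.11 at 3d and 9.96 at 7d in minipig 1 and of 11.80 and 10.47 in minipig 2. At 10d and 14d it had 9.34 and 9.14 in minipig 1 and 9.77 and 9.49 in minipig 2. The sides did not overlap, and the 3d libraries stood highest in both animals. The mean was 9.43 ± 0.26 (SD, n = 4) against 10.84 ± 0.80 (SD, n = 4), with a log2 fold change of -1.56 (standard error 0.32, adjusted p = 0.0268). The pre-TBI libraries spanned 9.55 to 10.43, so 3 of the 4 libraries of the second week lay below the range of unirradiated plasma. The 10d library of minipig 2 lay within it. Both 3d libraries lay above it, and the 7d library of minipig 2 lay just above it.

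ssc-miR-191, one of the most abundant miRNAs of platelets, had a log2 CPM of 15.18 at 3d and 13.87 at 7d in minipig 1 and of 16.14 and 13.81 in minipig 2. It then had 12.42 at 10d and 13.37 at 14d in minipig 1 and 11.60 and 12.27 in minipig 2. Again no library of the second week reached the first. The log2 fold change was -2.53 (standard error 0.54, adjusted p = 0.0268), from 14.75 ± 1.12 to 12.42 ± 0.73 (SD, n = 4 each). In counts, this was 9788, 3243, 19037 and 3088 against 230, 987, 133 and 562, so the value does not rest on scarce reads. The drop between the animal means of the sides was -1.64 in minipig 1 and -3.04 in minipig 2.

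ssc-miR-26a, which targets regulators of the cell cycle in many tissues, had a log2 CPM of 12.10 and 10.36 at 3d and 7d in minipig 1 and of 11.93 and 9.84 in minipig 2. Its levels at 10d and 14d were 9.29 and 8.997 in minipig 1 and 8.66 and 8.52 in minipig 2. All 4 of these were below every pre-TBI library, which spanned 9.72 to 10.75. The log2 fold change was -2.49 (standard error 0.58, adjusted p = 0.0448). ssc-miR-22-3p, which is abundant in erythroid and myeloid cells, had 14.04, 12.61, 14.97 and 11.999 in the first week (3d and 7d of minipig 1, then of minipig 2). In the second week it had 11.13, 11.70, 11.03 and 11.31 in the same order of animals. It also lay below the pre-TBI span of 11.996 to 13.58 in each of these 4 libraries, with a log2 fold change of -2.54 (standard error 0.61, adjusted p = 0.0448). Its partner strand ssc-miR-22-5p was not lower, with a log2 fold change of 0.52 (standard error 0.52).

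The next 4 lower ssc-miRNAs did not pass the adjusted threshold, each with an adjusted p of 0.064 (edgeR's quasi-likelihood test). ssc-miR-21, which is induced in inflammation and by cell stress, had 8.34 to 9.06 log2 CPM in the second week and 9.47 to 11.05 in the first, a log2 fold change of -1.64 (standard error 0.42). ssc-miR-10a-5p, encoded within a Hox cluster, had 11.54 to 12.75 against 12.39 to 14.42, so that the sides overlapped, with a log2 fold change of -1.39 (standard error 0.37). ssc-miR-28-3p, a platelet miRNA, had 9.23 to 10.52 against 10.64 to 11.998 and a log2 fold change of -1.50 (standard error 0.40). ssc-miR-27a, of the miR-23, 27 and 24 cluster, had 10.22 to 11.36 against 11.63 to 13.49 and a log2 fold change of -1.84 (standard error 0.49). Its counts differed from those of ssc-miR-27b-3p by less than counting noise, so the pair is read as 1 measurement whose reads cannot be separated. Both rows were still tested and counted separately, also among the 28 lower ssc-miRNAs.

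**Figure D1:**
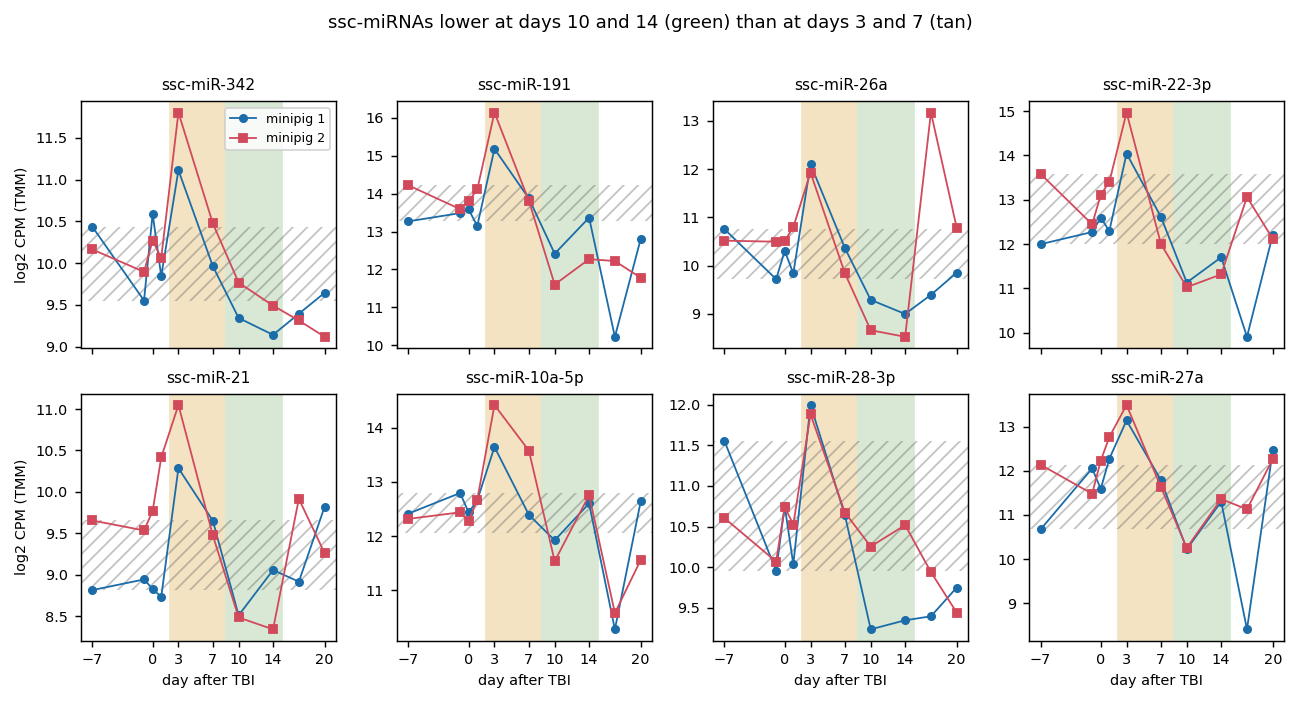
Level of the 8 lower ssc-miRNAs with the smallest p in minipigs 1 and 2, as TMM-scaled log2 CPM (y axis) by day after TBI (x axis), 1 library per point. The tan area marks 3d and 7d, the green area 10d and 14d, and the hatched band the range of the 6 pre-TBI libraries; in each panel both animals are highest within 3d to 14d at 3d, and ssc-miR-26a lies below the band at 10d and 14d.

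The plot of the lower ssc-miRNAs by day shows where the difference lay in time. Of the 28 lower ssc-miRNAs, 23 had their highest level of the 4 days at 3d in both minipigs, against 50 of all 411 (12.2%). In 13 of the 28 the mean of the first week was above every pre-TBI library, against 36 of all 411 (8.76%). In 14 of the 28 the mean of the second week was within the pre-TBI range, against 360 of all 411 (87.6%). Because the 28 were chosen on these same libraries, the shares describe them and test nothing. The step from 3d to 7d was as large as the one from 7d to 10d for ssc-miR-191, at -1.90 (standard error 0.62) and -1.78 (standard error 0.62) on the log2 scale. For ssc-miR-342 the steps were -1.26 (standard error 0.36) and -0.68 (standard error 0.36), and for ssc-miR-26a they were -1.90 (standard error 0.70) and -1.13 (standard error 0.71). Their steps from 10d to 14d were 0.86 (standard error 0.60), -0.25 (standard error 0.37) and -0.23 (standard error 0.72).

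Single steps had 2 libraries per day and no ssc-miRNA with an adjusted p under 0.05 in any of the 3 steps, by edgeR's quasi-likelihood test on 411 in each. At an unadjusted p under 0.05, 22 were lower (5.35%) and 3 higher (0.73%) at 7d than at 3d. From 7d to 10d, 26 were lower (6.33%) and 32 higher (7.79%). From 10d to 14d, 25 were lower (6.08%) and 19 higher (4.62%). The first step thus held almost only lower calls, whereas the later ones were mixed.

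No higher ssc-miRNA passed the adjusted threshold, beside the 26 at an unadjusted p under 0.05. With edgeR's likelihood ratio test 3 passed it, and with the DESeq2 Wald test 7 did. ssc-miR-455-3p, a miRNA of cartilage and connective tissue, came closest. Its log2 CPM was 12 at 10d and 9.97 at 14d in minipig 1 and 13.10 and 11.40 in minipig 2, against 9.08 and 10.21 at 3d and 7d in minipig 1 and 10.28 and 9.62 in minipig 2. Only the 14d library of minipig 1 overlapped the first week. The log2 fold change was 2.15 (standard error 0.65, adjusted p = 0.110). In counts it was 172, 93, 375 and 307 in the second week, and 140, 254, 325 and 167 in the deeper libraries of the first. The partner strand ssc-miR-455-5p had a log2 fold change of -0.06 (standard error 0.25).

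ssc-miR-3613 had the highest log2 fold change of all 411, 2.70 (standard error 0.90, adjusted p = 0.142). Its level was 5.74, 7.28, 6.68 and 6.72 log2 CPM in the first week and 10.66, 7.48, 9.03 and 8.22 in the second, and the sides did not overlap. ssc-miR-146a-3p, the passenger strand of an NF-kB-induced miRNA, had 7.18 to 8.08 in the first week and 8.36 to 11.19 in the second (log2 fold change 2.15, standard error 0.84, adjusted p = 0.269). ssc-miR-450c-3p, of an X-linked cluster, had 5.48 to 6.68 and then 6.97 to 8.60 (log2 fold change 1.81, standard error 0.70, adjusted p = 0.260), from only 8 to 25 counts per library. ssc-miR-9818-3p, ssc-miR-9787-3p, ssc-miR-9852-3p and ssc-miR-9826-5p, known only from pig, had log2 fold changes of 0.94 to 2.62 and adjusted p from 0.116 to 0.260. The level at 14d was below that at 10d in both animals for each of these 4. Of them, only ssc-miR-9818-3p had sides that did not overlap. In the 10d library of minipig 2 ssc-miR-9852-3p took 3.55% of the counts, against 0.21% to 0.93% in the rest of the second week. ssc-miR-9818-3p took 0.140% there, against 0.017% to 0.041%.

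**Figure D2:**
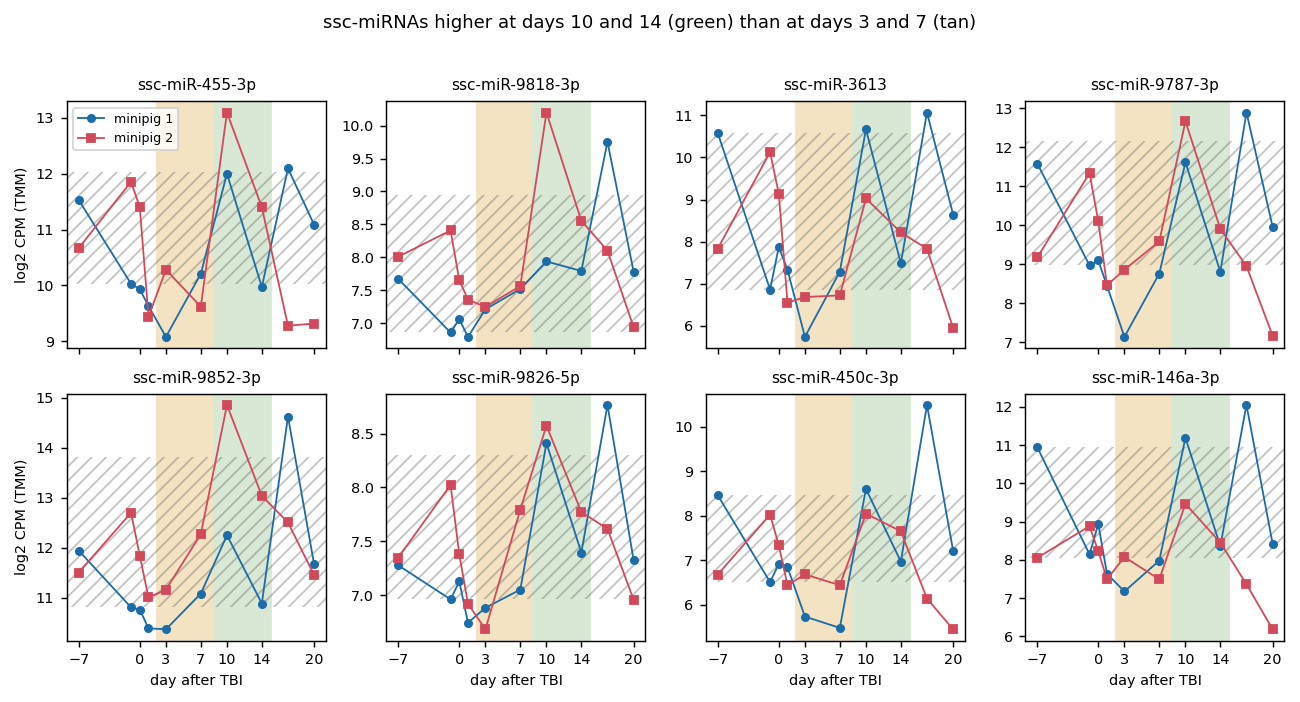
Level of the 8 higher ssc-miRNAs with the smallest p in minipigs 1 and 2, as TMM-scaled log2 CPM (y axis) by day after TBI (x axis), 1 library per point. The tan area marks 3d and 7d, the green area 10d and 14d, and the hatched band the range of the 6 pre-TBI libraries; the 10d library is the highest of the 4 days in both animals for each of the 8, and ssc-miR-455-3p at 10d in minipig 2 lies above the band.

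The timing of the higher group was as follows. The 26 were chosen on these same libraries too, so the shares describe them and test nothing. In 19 of the 26 the 10d library was the highest of the 4 days in both minipigs, against 75 of all 411 (18.2%), and in none of them was 3d the highest in both. In 24 of the 26 the mean of the second week was within the range of the pre-TBI libraries, a share close to the 87.6% of all 411. In 19 of the 26 the mean of the first week was within that range, against 351 of all 411. In none was it above, against 36 of all 411, so in the rest of the 26 it lay below. ssc-miR-3613 was 1 of these, with a first-week mean of 6.61 under a pre-TBI range of 6.86 to 10.58. Its second-week mean of 8.85 was within that range. The 26 took 1.502% ± 0.61 of the counts in the first week and 4.85% ± 4.56 in the second (SD, n = 4 each). The 10d library of minipig 2 carried the second value, with 11.55% against 1.43% to 3.70% in the other 3, and without it the mean was 2.62%. The 28 lower ones took 12.1% ± 7.14 and then 3.35% ± 1.24 (SD, n = 4 each).

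**Figure D3:**
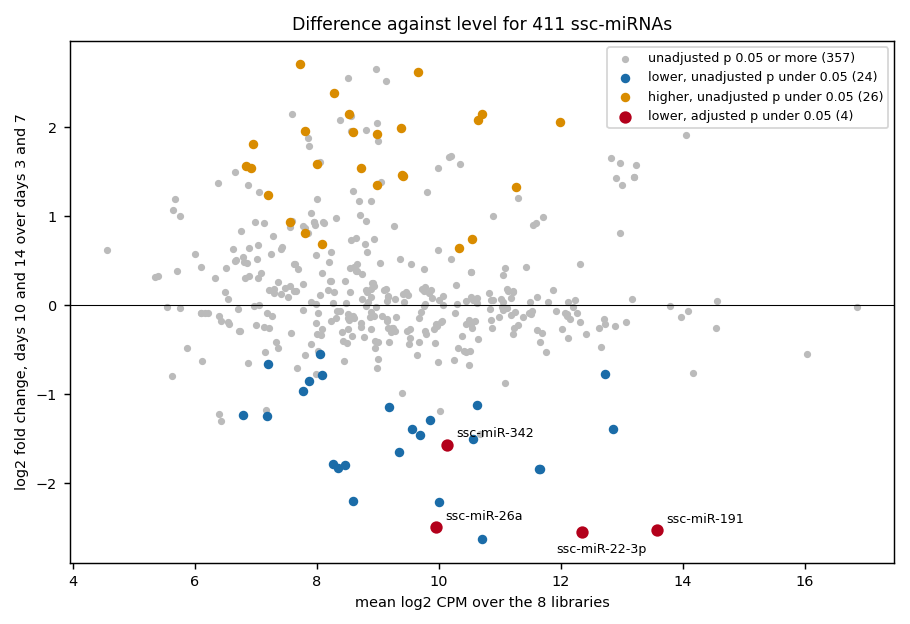
Log2 fold change of 10d and 14d over 3d and 7d (y axis) against the mean log2 CPM over the 8 libraries (x axis) for the 411 ssc-miRNAs, coloured by the edgeR quasi-likelihood test. The 4 ssc-miRNAs that passed the adjusted threshold (red) lie at log2 fold changes of -1.56 to -2.54, while most points lie close to 0.

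The level of these ssc-miRNAs was also read in shallow libraries outside the comparison. The pre-TBI library of minipig 1 at day -7 was the shallowest of all, with 24341 counts. The median log2 CPM over the 28 lower ssc-miRNAs was 8.89 there, next to 8.55 to 9.17 in the 4 libraries of the second week, while the other 5 pre-TBI libraries, with 139786 to 423325 counts, had 9.48 to 9.98. The 3d libraries had 10.76 and 10.95 and the 7d libraries 9.75 and 9.59. At 17d, minipig 1, with 29159 counts, had 8.504, and minipig 2, with 63441 counts, had 9.93. With every library thinned to 24341 counts, no ssc-miRNA passed the adjusted threshold, and 23 were lower and 28 higher at an unadjusted p under 0.05 (edgeR's quasi-likelihood test). Over the 26 higher ssc-miRNAs the shallow library had 9.53, and the other pre-TBI libraries had 7.87 in minipig 1, 8.27 and 9.68 in minipig 2, and 10.24 and 9.43 in minipig 3. At 17d they had 10.82 in minipig 1, the highest of the 24 libraries, and 8.64 in minipig 2. The 4 that passed the test did not all follow this order. Among the pre-TBI libraries the shallow one was the highest for ssc-miR-342 and ssc-miR-26a. It was the lowest of them for ssc-miR-191 and ssc-miR-22-3p. In the shallow library ssc-miR-342 had 10.43, ssc-miR-191 had 13.27, ssc-miR-26a had 10.75 and ssc-miR-22-3p had 11.996, each above every library of the second week except for ssc-miR-191, which reached 13.37 at 14d in minipig 1.

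**Figure D4:**
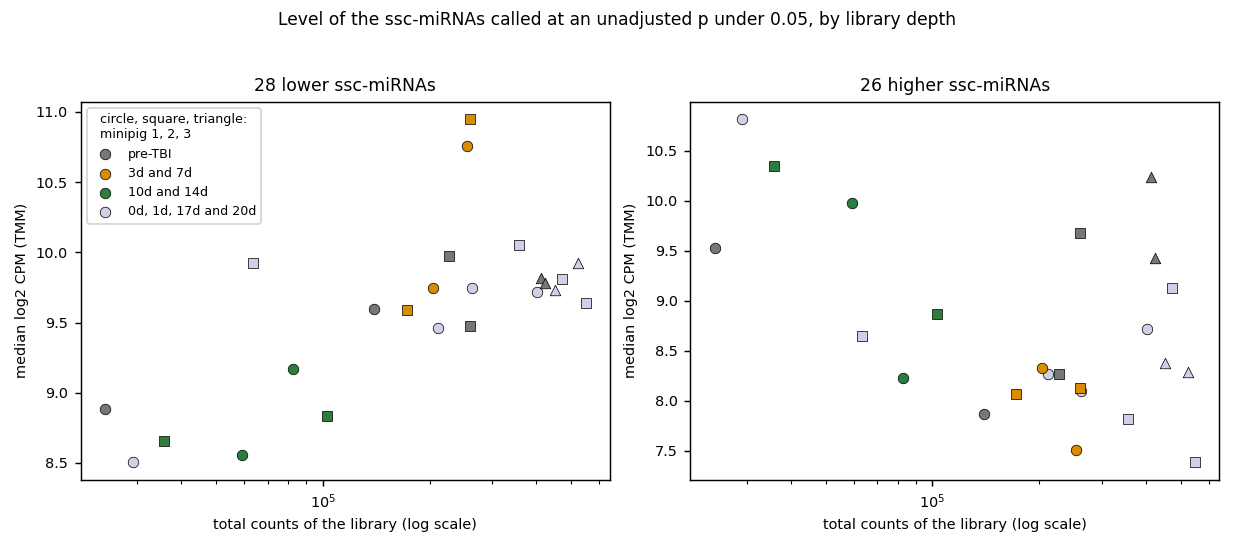
Median TMM-scaled log2 CPM (y axis) over the 28 lower (left) and the 26 higher (right) ssc-miRNAs against the total counts of the library (x axis, log scale), for the 24 libraries. Colour gives the time and marker shape the minipig; the 4 libraries of 10d and 14d lie to the left of the 4 of 3d and 7d, and the shallowest library, pre-TBI of minipig 1, lies at 8.89 on the left.

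Lists of miRNAs known from blood cells were then followed, each by its counts and its median. Over all 411 ssc-miRNAs the median was 0.05, 46.2% were below 0, and 6.81% were called lower and 6.33% higher at an unadjusted p under 0.05. The erythroid list had 3 of 3 members below 0 and a median log2 fold change of -1.17, with 1 of the 3 lower at an unadjusted p under 0.05. That member was ssc-miR-451, the most specific miRNA of red cells, with 11.65 and 9.89 log2 CPM at 3d and 7d in minipig 1 and 12.50 and 9.60 in minipig 2. At 10d and 14d it had 8.92 and 9.91, and 8.96 and 8.59. The sides overlapped by the 14d library of minipig 1 (log2 fold change -2.21, standard error 0.95, adjusted p = 0.323). ssc-miR-486, the most abundant of the 3 and 2.24% of all counts, had -0.77 (standard error 0.68), and ssc-miR-144, which RefSeq (Sscrofa11.1) places next to ssc-miR-451, had -1.17 (standard error 0.87). The list median turned to 0.43 when 10d was set against 7d alone.

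The platelet-enriched list had 5 of 9 members below 0 and a median of -0.22, so it did not move as a block. Beside ssc-miR-191, which passed the adjusted threshold, ssc-miR-28-3p and ssc-miR-126-5p were called lower without adjustment. ssc-miR-126-5p, shared by platelets and endothelium, had a log2 fold change of -1.46 (standard error 0.46, adjusted p = 0.116) and 7.77 to 10.02 log2 CPM in the second week against 9.61 to 11.38. Its partner strand ssc-miR-126-3p had 0.40 (standard error 0.28). MIR425 and MIR191 are neighbours within 10000 bases in RefSeq, yet ssc-miR-425-3p was on the other side at 0.74 (standard error 0.33, unadjusted p under 0.05, adjusted p = 0.331), and ssc-miR-425-5p had 1.20 (standard error 0.61). The erythroid list took 3.10% ± 1.96 of the counts in the first week and 1.75% ± 0.89 in the second (SD, n = 4 each). The platelet list took 5.39%, 2.66%, 8.64% and 3.09% of the counts in the first week and 0.929%, 2.10%, 2.75% and 2.19% in the second, in the order of minipig 1 and then minipig 2. The 3d libraries were the highest 2 of the 8, and the sides overlapped by the 10d library of minipig 2.

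Leukocyte miRNAs were divided. In the lymphocyte list ssc-miR-342 passed the test, whereas ssc-miR-150, the most abundant miRNA of mature lymphocytes, had a log2 fold change of 0.18 (standard error 0.29). Its log2 CPM was 8.95 to 9.18 in the first week and 8.89 to 9.56 in the second, and the sides overlapped. ssc-miR-155-5p and ssc-miR-155-3p, of activated lymphocytes, had -0.79 and 1.19, at 4.44 to 8.07 log2 CPM. In the myeloid and pan-leukocyte list the 2 rows were the strands of miR-142, and miR-223, the neutrophil miRNA, was not analysed here. ssc-miR-142-5p had 9.62 and 8.61 at 3d and 7d in minipig 1 and 10.33 and 7.33 in minipig 2, and then 7.94, 7.99, 7.21 and 7.12 (log2 fold change -1.79, standard error 0.58, adjusted p = 0.136). The 7d library of minipig 2 lay among those of the second week. ssc-miR-142-3p had -0.65 (standard error 0.44).

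The let-7 family represses growth and cell cycle genes. The let-7 list had 9 rows, among them the 3p strand ssc-let-7d-3p (-0.51, standard error 0.38). All 9 were below 0, against 46.2% over all ssc-miRNAs, with a median of -1.22. At an unadjusted p under 0.05, 4 of the 9 were lower, against 6.81%. None passed the adjusted threshold. The members called were ssc-let-7a (-2.20, standard error 0.68, adjusted p = 0.110), ssc-let-7f (-1.82, standard error 0.64), ssc-let-7g (-1.79, standard error 0.72) and ssc-let-7c (-1.39, standard error 0.57). These 4 carry the seed GAGGUAG shown above and differ by few bases, so reads may be shared among them. ssc-let-7a had 10.51, 8.43, 10.47 and 8.77 log2 CPM in the first week and 7.44, 7.72, 8.28 and 7.12 in the second, with no overlap. ssc-let-7e, at 6.08 to 6.84 in all but 1 library and 5.79 in that one, had -0.12 (standard error 0.46). The list took 0.707% ± 0.22 of the counts in the first week and 0.331% ± 0.12 in the second (SD, n = 4 each), and no library of the second week reached any of the first. With 10d set against 7d alone, 7 of the 9 were below 0 and none was called.

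The miR-23, 24 and 27 clusters were called for some members and not for others. Of 8 rows, 7 were below 0, against 46.2% over all ssc-miRNAs, and the median was -0.29. At an unadjusted p under 0.05, 3 rows were lower, against 6.81%, but ssc-miR-27a and ssc-miR-27b-3p are 1 measurement, so that with ssc-miR-24-3p the calls amount to 2. ssc-miR-24-3p had 9.28 to 10.36 log2 CPM in the first week and 7.44 to 9.22 in the second (log2 fold change -1.14, standard error 0.34, adjusted p = 0.092). ssc-miR-23a and ssc-miR-23b, which RefSeq places beside MIR27A and MIR27B, had -0.20 (standard error 0.24) and -0.24 (standard error 0.36). In the miR-15 and miR-16 list the median was -0.53 and 4 of 5 rows were below 0. ssc-miR-16, a brake on cyclins and abundant in red cells, had the lowest log2 fold change of all 411, -2.62 (standard error 0.89, adjusted p = 0.153), with 12.47, 11.13, 13.37 and 10.40 against 9.17, 10.32, 9.56 and 9.28 and no overlap. ssc-miR-15b, a neighbour of MIR16-1, had -0.53 (standard error 0.40).

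**Figure D5:**
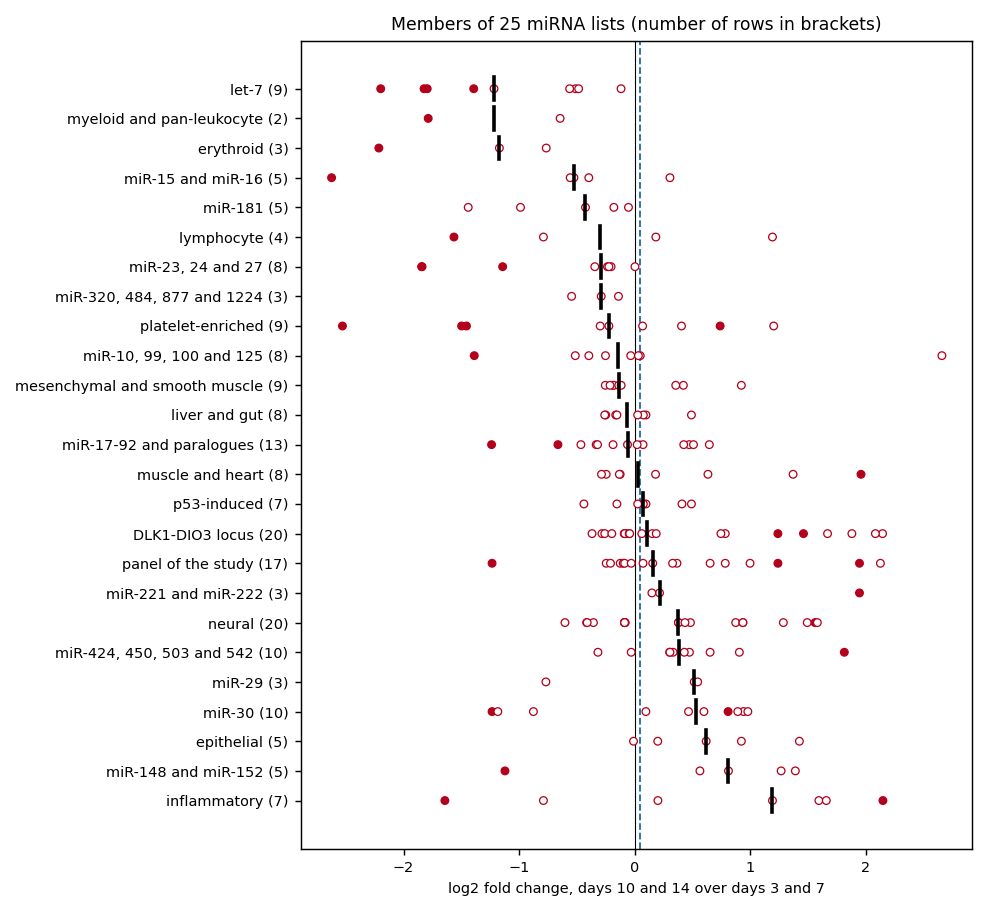
Log2 fold change of 10d and 14d over 3d and 7d (x axis) for the members of 25 miRNA lists (y axis, number of rows in brackets). Each circle is 1 row, filled where the unadjusted p was under 0.05, the black bar is the median of the list and the dashed line the median of all 411 ssc-miRNAs (0.05); let-7 has the lowest median, -1.22, and the inflammatory list the highest, 1.19.

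The remaining families had medians from -0.43 to 0.81. The 5 rows of miR-181, which acts in lymphocyte development, were all below 0 with a median of -0.43 and no call, and the rows of ssc-miR-320, ssc-miR-484 and ssc-miR-1224, whose precursors bypass Drosha, were all below 0 with a median of -0.29 and no call. Among 13 rows of miR-17-92 and its paralogues, 7 were below 0 and the median was -0.06, and ssc-miR-17-5p (-1.24, standard error 0.41) and ssc-miR-106a (-0.66, standard error 0.28), which have the same seed, were called lower without adjustment. The 10 rows of miR-30 had a median of 0.53 with ssc-miR-30c-1-3p called lower (-1.23, standard error 0.35) and ssc-miR-30e-3p higher (0.81, standard error 0.38). The 8 rows of miR-10, miR-99, miR-100 and miR-125 had a median of -0.14 with ssc-miR-10a-5p called lower, while ssc-miR-10a-3p had 2.66 (standard error 1.31). In the miR-148 and miR-152 list, with a median of 0.81, ssc-miR-148a-3p was called lower (-1.12, standard error 0.48) although its other 4 rows were above 0. The 3 rows of miR-29 had a median of 0.51 with no call. Of the 3 rows of miR-221 and miR-222, all above 0 with a median of 0.21, ssc-miR-221-5p was called higher (1.94, standard error 0.89).

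Lists of organs showed little. The liver and gut list had 8 rows, a median of -0.06 and no call. ssc-miR-122, specific to hepatocytes, had 9.25 to 9.55 log2 CPM in the first week and 8.39 to 10.16 in the second (log2 fold change -0.26, standard error 0.41). The muscle and heart list had 8 rows with a median of 0.03, and 1 of them, the cardiac ssc-miR-208b, was called higher without adjustment (1.96, standard error 0.89, adjusted p = 0.331) at 6.02 to 8.04 in the first week and 5.94 to 10.51 in the second. The 20 neural rows had a median of 0.38 with 1 higher call, and they include rows with the same counts in every library. The 7 rows of the p53-induced list, which holds miRNAs transcribed or processed under the DNA damage response, had a median of 0.07 and no call. The mesenchymal and smooth muscle list had 9 rows, a median of -0.14 and no call, the X-linked miR-424, miR-450, miR-503 and miR-542 list 10 rows, a median of 0.38 and 1 higher call, and the imprinted DLK1-DIO3 locus 20 rows, a median of 0.11 and 2 higher calls. The epithelial list had 5 rows and a median of 0.62 with no call. The 17 miRNAs that the study put forward as a panel, chosen by it on these same libraries, had a median of 0.16 with 1 lower and 2 higher calls without adjustment.

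The inflammatory list had the highest median, 1.19, with 5 of 7 rows above 0, yet its members went separate ways. ssc-miR-21 was called lower and ssc-miR-146a-3p higher, both without adjustment. The most abundant rows were ssc-miR-146a-5p, at 12.45, 13.70, 13.62 and 10.22 log2 CPM in the first week and 16.20, 13.72, 12.96 and 10.91 in the second, and ssc-miR-146b, at 12.36, 13.61, 13.54 and 9.85 and then 16.20, 13.66, 12.79 and 10.53. The 10d library of minipig 1 was far above the rest. It was so too for ssc-miR-183, ssc-miR-186, ssc-miR-490-3p and ssc-miR-124a, which are outside this list. For ssc-miR-146a-5p and ssc-miR-146b the log2 fold changes were 1.59 (standard error 1.32) and 1.66 (standard error 1.46). Their spread within each side was larger than the difference between the sides. Without the 10d library of minipig 1, 5 of the 7 rows were below 0 and the median was -0.05.

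Most of the abundant ssc-miRNAs differed by less than their spread. ssc-miR-4332 took 12.7% of the counts over the 8 libraries and had 16.87 ± 0.27 log2 CPM in the first week and 16.85 ± 0.24 in the second (SD, n = 4 each), a difference within the spread (log2 fold change -0.02, standard error 0.55). ssc-miR-484, with 7.74% of the counts, had -0.55 (standard error 0.64). ssc-miR-10b had 0.05 (standard error 0.38), ssc-miR-9828-3p -0.25 (standard error 0.46) and ssc-miR-92b-3p -0.06 (standard error 0.41). ssc-miR-9850-5p varied most among them, from 10.88 to 14.84 in the first week and from 12.08 to 17.55 in the second, and had 1.91 (standard error 1.35). Adjusted p values of these abundant ssc-miRNAs other than ssc-miR-191 were 0.539 or more (edgeR's quasi-likelihood test).

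The 4 adjusted calls depended on single libraries, on the scaling and on how the spread was estimated, while their direction did not. With each of the 8 libraries in turn as the TMM reference, in place of edgeR's own choice, 5 references gave 2 adjusted lower calls and the other 3 gave 0, 1 and 4. With library size alone as the scaling none passed, beside 24 lower and 17 higher at an unadjusted p under 0.05. None was left when only the 8 libraries were fitted, beside 29 lower and 30 higher ssc-miRNAs at an unadjusted p under 0.05. None was left without the 3d library of either minipig, without the 10d library of minipig 1 or without the 14d library of minipig 2. Without the 14d library of minipig 1 or the 10d library of minipig 2, 1 passed, whereas 10 ssc-miRNAs passed without the 7d library of minipig 1. With both days of the second week set against 3d alone 17 passed, and against 7d alone none did. Each of the 4 was lower in all 26 alternatives, with log2 fold changes from -2.18 to -0.68 for ssc-miR-342, -3.43 to -1.35 for ssc-miR-191, -3.26 to -1.13 for ssc-miR-26a and -3.28 to -1.04 for ssc-miR-22-3p. The alternatives reuse the libraries on which the 4 were chosen, so the shared direction is no separate test.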

How the data were processed

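Small RNA of plasma was prepared by the authors with a TruSeq kit. Reads were trimmed with Cutadapt, mapped to ssc5 and then to pig entries of miRBase, and known ssc-miRNAs were quantified with miRDeep2; the labels' processing notes name Bowtie2 2.2.3.0. The deposited values are raw counts, whole numbers for 411 ssc-miRNAs in 30 libraries, without normalization. How multi-mapping reads were counted is not given in the sources used here, and mature sequences and genome coordinates were not used here.

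Counts were tested with edgeR 4.0.16 (R 4.3.3), TMM normalization, CPM above 0.5 in at least 3 libraries (all 411 passed), 24 libraries in 7 groups (9 for single days) and no animal term, by the quasi-likelihood test with Benjamini-Hochberg adjustment over 411. The biological coefficient of variation was 0.508. Standard errors were derived from the F statistic, as the size of the log2 fold change over the root of F. Levels are log2 CPM with a prior count of 2. Totals were compared by exact permutation. The minimum of 1000 counts is that of the rule for the groups. The test was tried on simulated data first. The 25 lists, the ssc-miRNAs and the comparison were chosen with earlier results of these data known. Named ssc-miRNAs were the adjusted calls, filled to 8 a direction by the smallest p among those moving that way in both minipigs (identical rows once), the 8 most abundant, and in each list those with the smallest p or the highest level. Members whose neighbours or partner strands are given were named beside them.

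Libraries were paired by the design, since both sides came from the same animals. Deviations of libraries from their side's mean had a mean correlation of 0.19 between sides within a minipig (0.233 in minipig 1, 0.146 in minipig 2) and of -0.198 between minipigs. No libraries of one side were duplicates. Alternatives were other scalings, filters, tests, samples and days. Figures used Python 3.11.15 and matplotlib 3.10.9.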

Additional observations from a re-analysis of the deposited data

Results flagged for a closer look

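Dixon's criterion at the 95% level marked 6 of the 100 groups of 4 libraries that were examined, where chance marks about 1 in 20. All were shares of counts taken by a list. At 10d and 14d the myeloid and pan-leukocyte list took 0.04725% in the 14d library of minipig 1 against 0.0219% to 0.0233% in the other 3, the miR-30 list took 1.16% in the 10d library of minipig 2 against 0.452% to 0.552%, and the miR-221 and miR-222 list took 0.352% in the same library against 0.1139% to 0.1504%. At 3d and 7d the miR-17-92 list and its paralogues took 3.54% in the 3d library of minipig 2 against 4.14% to 4.27%, the liver and gut list took 0.862% in the 7d library of minipig 1 against 1.31% to 1.39%, and the miR-424, miR-450, miR-503 and miR-542 list took 0.888% in the 7d library of minipig 2 against 0.567% to 0.580%. None of the named ssc-miRNAs and neither side's totals were marked.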

How the results depend on the processing

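With the minipig as a replicate block in the paired fit, 4 ssc-miRNAs were lower and 0 higher at an adjusted p under 0.05, and 31 and 33 at an unadjusted one. ssc-miR-342, ssc-miR-191, ssc-miR-26a and ssc-miR-22-3p had an adjusted p of 0.042 in that fit, so their calls were not changed. Adjusted lower calls (4 in the report) were 0 with only the 8 libraries (with or without the replicate block), with library size only, with counts thinned to 24341 per library, without the most abundant row, with either minipig alone, with 10d against 7d, with 10d and 14d against 7d, and with 1 of the 8 libraries as TMM reference, while 5 of these references gave 2 and the others 1 and 4. They were 2 with relative log expression, 2 with at least 10 counts in 4 of the 8 libraries, 11 with upper quartile scaling, 12 with the likelihood ratio test, 16 with the DESeq2 Wald test and 17 with 10d and 14d against 3d, and 0 to 10 when 1 library was left out. Adjusted higher calls (0) were 3 with the likelihood ratio test and 7 with the DESeq2 Wald test. Unadjusted lower calls (28) were 13 with minipig 1 alone, 17 with minipig 2 alone and 13 against 7d alone. Unadjusted higher calls (26) were 17 with library size only, 43 with the likelihood ratio test, 55 with the DESeq2 Wald test, 13 and 14 with minipig 1 and minipig 2 alone, 2 with 14d against 3d, 4 against 7d alone, 15 against 3d alone, and 10 to 55 when 1 library was left out. The comparisons with 7d alone and 3d alone were chosen after seeing the data. In the single steps, the higher calls at 7d against 3d went from 3 to 1 with only the 8 libraries, those at 10d against 7d from 32 to 50 with the replicate block and 65 with only the 8 libraries, and the lower calls at 14d against 10d from 25 to 41 and 55. The difference in log2 total, -1.753, had an exact permutation p of 0.0286 with labels moved over all 8 libraries.

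The 8 lower and the 8 higher ssc-miRNAs with the smallest p kept their direction in all 26 alternatives. They were chosen on these same libraries, and those beyond the adjusted calls also for moving the same way in both minipigs. Their shared direction therefore tests nothing. Some other ssc-miRNAs called lower did turn. With 10d against 7d, ssc-let-7g had 0.20 (standard error 0.89) and ssc-miR-148a-3p 0.15 (standard error 0.56). The cause of the changes in calls was not tested. Some of the abundant ssc-miRNAs changed sign, both those with values near 0 and others. ssc-miR-4332 (-0.02) turned to 0.00202 with only the 8 libraries and the block, 0.27 with minipig 2 alone and 0.16 with 14d against 3d. It ranged from -0.11 to 0.064 when 1 library was left out. ssc-miR-10b (0.05) turned to -0.00102 with library size only, -0.10 with minipig 2 alone, -0.63 with 10d against 7d and -0.18 against 7d alone, and from -0.12 to 0.32 without 1 library. ssc-miR-92b-3p (-0.06) turned to 0.24 with minipig 2 alone, 0.33 with 14d against 3d and 0.0051 against 3d alone, and to between -0.20 and 0.066 without 1 library. ssc-miR-486 (-0.77) turned to 0.43 with 10d against 7d and 0.21 against 7d alone, and ssc-miR-9850-5p (1.91) to -0.088 with 14d against 3d. Depth limits the rows with few reads: 142 of 411 had under 10 counts in at least 1 library of the second week, among them 12 of the 28 lower and 5 of the 26 higher.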

Other observations

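A few abundant rows ran in parallel through the 8 libraries, a pattern chosen after the values were seen. ssc-miR-146a-5p, whose log2 CPM spanned 5.98 over these libraries, differed from ssc-miR-146b by 0.00 to 0.38 and from ssc-miR-183, a sensory and epithelial miRNA from another family, by -0.28 to 0.55. Its difference from ssc-miR-9850-5p was -1.08 ± 0.25 (SD, n = 8). Its own partner strand ssc-miR-146a-3p lay below it by 2.46 to 5.72. Over all 24 libraries the difference between ssc-miR-146a-5p and ssc-miR-183 reached -3.29, so the parallel course with ssc-miR-183 did not hold in every library, while that with ssc-miR-9850-5p stayed between -1.41 and -0.16. In the 10d library of minipig 1 ssc-miR-146a-5p took 5.34% of the counts. There ssc-miR-186, ssc-miR-490-3p and ssc-miR-124a took 5.31%, 5.28% and 5.58%. In the other libraries compared, ssc-miR-186 took at most 1.55%, ssc-miR-490-3p 1.62% and ssc-miR-124a 1.63%. Why these rows ran in parallel was not tested.

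Abundance and direction also moved together. Among the 103 ssc-miRNAs with the lowest mean level over the 8 libraries (4.57 to 7.85 log2 CPM), 37 were below 0 and the median log2 fold change was 0.30, whereas among the 103 with the highest (10.54 to 16.86) 58 were below 0 and the median was -0.05. Of the 4 adjusted calls, 2 were among these 103.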
